A study of Mus musculus with 77 samples.

Results

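Among single blastomeres of mouse cloned embryos, some held whole autosomes that were called almost entirely in 1 replication state, out of step with the replication score of the cell. Such a cell belonged to group A if its replication score was 40% or more and at least 1 autosome was 10% replicated or less, or if its score was 60% or less and at least 1 autosome was 90% replicated or more. An autosome that met this rule is called a one-state autosome, and the other autosomes of the cell are its remaining autosomes. Group A held 18 cells of 11 embryos, out of 65 cells of 19 embryos in the 2 title sets searched and 77 cells in the whole series. In 6 of the group A cells at least 15 remaining autosomes were replicated at 98% or more. Of these, 4-cell embryo 6 cell c still had remaining chromosome 6 at 10.3%, and 4-cell embryo 5 cell a had chromosome 9 at 57.1%. In the others little besides the one-state autosomes was unreplicated. The other 47 cells, of 16 embryos, formed group B. The groups were therefore chosen from the measured profiles, and the values of the one-state autosomes are described without a test.

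All cells came from cloned BDF1 embryos, the product of somatic cell nuclear transfer (SCNT), cultured in vitro in CZB medium, and the groups share that strain and treatment. No label gives the donor cell type or the age of the embryos in hours. Each sample was 1 blastomere, taken by micromanipulation, and its DNA went through whole-genome amplification before sequencing. Group A comprised 9 of the 16 4-cell blastomeres and 9 of the 49 8-cell blastomeres of these sets. Cells are named by stage, embryo and a letter, and since cells of 1 embryo share their source, every test was made over embryos.

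In S phase, DNA is copied from many origins in an order that is largely the same from cell to cell: gene-rich, open chromatin is copied early and compact, gene-poor chromatin late. Single-cell replication sequencing reads this order from copy number, since a replicated segment gives more reads than one not yet copied. In these states a chromosome gained or lost and a chromosome replicated or not replicated cannot be told apart. In SCNT the nucleus of a differentiated cell is placed in an enucleated oocyte.

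The files give 1 state per bin of 80 kb in build mm9, replicated, not replicated or not called, and between 27057 and 29849 of 30890 autosomal bins were called per cell. The replication score is the percent of called autosomal bins that were replicated. It ran from 42% to 94.8% in group A, with a median of 80.4%, and from 12.9% to 94.3% in group B, with a median of 59%. Read depth is unknown, so values carry the spread between embryos and no counting interval. The cells all belong to 1 batch in the authors' annotation, but to 2 title sets, DEP_01_162 and DEP_01_164. Set DEP_01_162 held 6 cells of group A and 22 of group B, and set DEP_01_164 held 12 and 25. No pair of profiles was identical.

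The one-state autosomes numbered 37 in the 18 cells. Of these, 27 were unreplicated and 10 were replicated, and 26 were found in 4-cell and 11 in 8-cell embryos. 12 cells had 1 of them, 4 cells had 2 or 3, and 2 cells had 8. Most were not near the limit of the rule: 21 of the 27 unreplicated autosomes had under 1% of called bins replicated, and 12 had none. The highest value inside the lower limit was 9.32%, chromosome 2 in 4-cell embryo 2 cell a, and the lowest value outside it was 10.3%, chromosome 6 in 4-cell embryo 6 cell c, which is in group A through chromosomes 9 and 10. The lowest value inside the upper limit was 90.2%, chromosome 19 in 8-cell embryo 1 cell c, and the highest outside it was 85.5%, chromosome 13 in 4-cell embryo 6 cell d. In cells of group B the closest values were 17.1% and 84.1%.

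**Figure D1:**
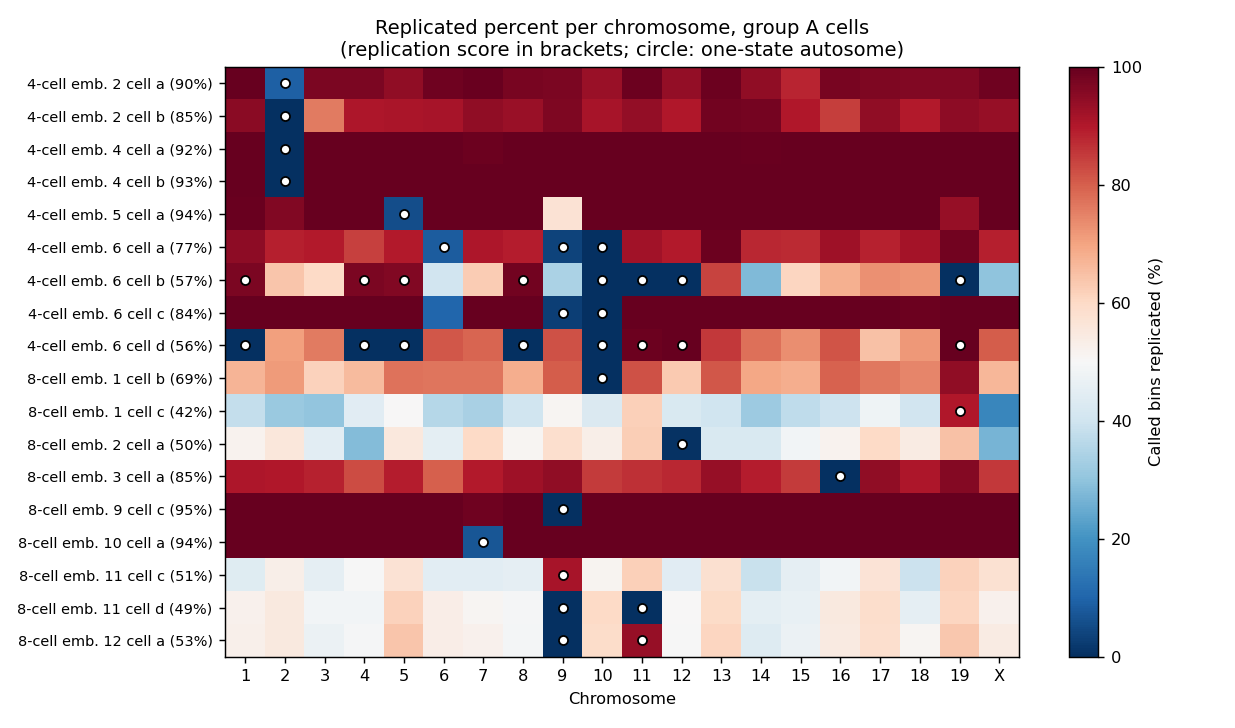
Percent of called bins replicated for each chromosome (x axis) in each of the 18 group A cells (y axis, with the replication score of the cell in brackets). Circles mark the 37 one-state autosomes; 4-cell embryo 6 cells b and d have 8 each, in mostly opposite states, while the 8-cell rows have 1 or 2 against an otherwise even background.

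Chromosome 9 was in 1 state most often, 6 times in 4 embryos, followed by chromosome 10 with 5 times in 2 embryos. Chromosomes 2 and 11 had 4 each, and 6 autosomes (3, 13, 14, 15, 17 and 18) were never in 1 state. Chromosome 2 was unreplicated in both cells of 4-cell embryo 2, at 9.32% and 0.254%, and in both cells of 4-cell embryo 4, at 0.136% and 0%. In group B cells within 10 points of the replication score of those 4 cells, chromosome 2 ran from 73.3% to 94.1%. Of the 37 one-state autosomes, 10 were in the same state in another blastomere of the embryo and 16 were in the opposite state in one. The remaining 11 met the rule in no other blastomere of their embryo. The rule calls no replicated autosome in a cell with a score above 60%, so opposite states there were not counted. Among the 11, chromosome 9 of 8-cell embryo 9 cell c was at 0%. It was at 100% in cells a and b, at scores of 94.3% and 93.7%. Only profiled blastomeres were compared, and 8-cell embryos 2, 10 and 12 and 4-cell embryo 5 had 1 other each. The 11 are therefore not shown to be particular to 1 blastomere.

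4-cell embryo 6 held most of the opposite pairs. Its cells b and d had nearly equal replication scores, 56.6% and 56.5%. Chromosomes 1, 4, 5 and 8 were 96.4% to 98.1% replicated in cell b and at 0% in cell d. Chromosomes 11, 12 and 19 were at 0% to 0.0673% in cell b and at 99.2% to 100% in cell d. These 7 autosomes thus added up to between 96.4% and 100% over both cells, whereas the 11 remaining autosomes added up to between 105.5% and 169%. Of those 11, 9 were higher in cell d, among them chromosome 9 with 34.1% in cell b and 81.7% in cell d. Chromosome 10 was at 0% to 0.252% in all 4 cells of the embryo. Cells a and c, at scores of 76.6% and 84.1%, had chromosomes 1, 4, 5, 8, 11, 12 and 19 at 84.3% or more, so the opposite states were seen between b and d and not between those cells.

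At the 8-cell stage the pairs were fewer. In 8-cell embryo 11, chromosome 9 was 91.1% replicated in cell c and 0.201% in cell d, with 50.5% and 58% in cells e and f, at replication scores between 47.2% and 56.5%. Chromosome 11 of cell d was at 0.209%, against 62%, 59.5% and 63.1% in cells c, e and f. 8-cell embryo 12 cell a had chromosome 9 at 0% and chromosome 11 at 93.4%, where its cell b had 57.6% and 64%. Chromosome 12 was at 0.435% in 8-cell embryo 2 cell a (score 49.8%) and 96.4% in cell b (score 81.8%). In 8-cell embryo 3, cell a (score 85.4%) had chromosome 16 at 0.352%, and cell f (score 87.7%) had 91.8%. 8-cell embryo 9 cell c (score 94.8%) had chromosome 9 at 0%, and the same chromosome was at 100% in cells a and b. 8-cell embryo 10 cell a (score 94.3%) had chromosome 7 at 7.36%. 4-cell embryo 5 cell a (score 93.7%) had chromosome 5 at 5.83%, where cell b, in group B, had 56.6%.

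In 8-cell embryo 1 the state changed within a chromosome. Chromosome 19 from 17840001 to its end was 100% replicated in cell c and 95.6% in cell b, both of group A. The same stretch was at 0% in cells a, d, e, f and g of group B, at replication scores of 32.3% to 72.8%, and at 32.3% in cell h. Only 184 and 193 bins of it were called in cells f and g and 413 and 426 in cells a and d, against 543 in cells b, c and e. Before that position the 8 cells ran from 48.9% to 91.2%. In 24 group B cells of other embryos with scores from 30% to 75% the stretch ran from 33.1% to 80.3%. The division of cells by the rule therefore leaves in group B cells with 1 run that covers more than 50% of the called bins of an autosome. Besides these 5, the runs were on chromosome 13 of 4-cell embryo 3 cell a, chromosome 11 of its cell b and chromosome 2 of 8-cell embryo 11 cell f. Uncalled bins were left out of runs, and chromosome 19 had 50.4% and 51.7% of its bins called in cells f and g. At replication scores near the ends of the range such runs were also found in group B. They were on 16 autosomes of 4-cell embryo 5 cell b and on 14 and 15 of 8-cell embryo 9 cells a and b. The 16 included chromosome 1 with 5.92% of its bins called. In 8-cell embryo 11 cell b there was 1, chromosome 6 at 0% with 3.66% of its bins called. Chromosome 10 in 8-cell embryo 1 was at 0.216% in cell b and at 96.0% in cell e, whose score of 72.8% kept it outside the rule.

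Bins were less often called on one-state autosomes. In group A, 10 of the 37 one-state autosomes had under 90% of their bins called, which is 27%, against 11 of 305 remaining autosomes (3.61%) and 22 of 893 autosomes of group B (2.46%). The called share averaged 84.6% ± 17.7 (SD, n = 11 embryos) on one-state autosomes and 98.5% ± 1.63 on the same autosomes in group B cells of like score. The difference of -13.9 points was below 0 in 10 of 11 embryos. Against the remaining autosomes of the same cells it was -13.5 points, below 0 in 8 of 11 embryos. No p is given, since the rule picked these autosomes by a percent of called bins. The lowest shares were 47.2% for chromosome 12 of 8-cell embryo 2 cell a and 56.3%, 58.2% and 59.2% for chromosome 5 of 4-cell embryo 6 cells d and b and 4-cell embryo 5 cell a. In the last of these, 749 of the 758 uncalled bins formed 1 gap from 92400001 to 152480000. Other one-state autosomes were called throughout: chromosome 9 of 8-cell embryo 9 cell c had no uncalled bin and no replicated one. This comparison was added after the profiles had been seen, and whether uncalled bins bear on the one-state calls was not tested.

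**Figure D2:**
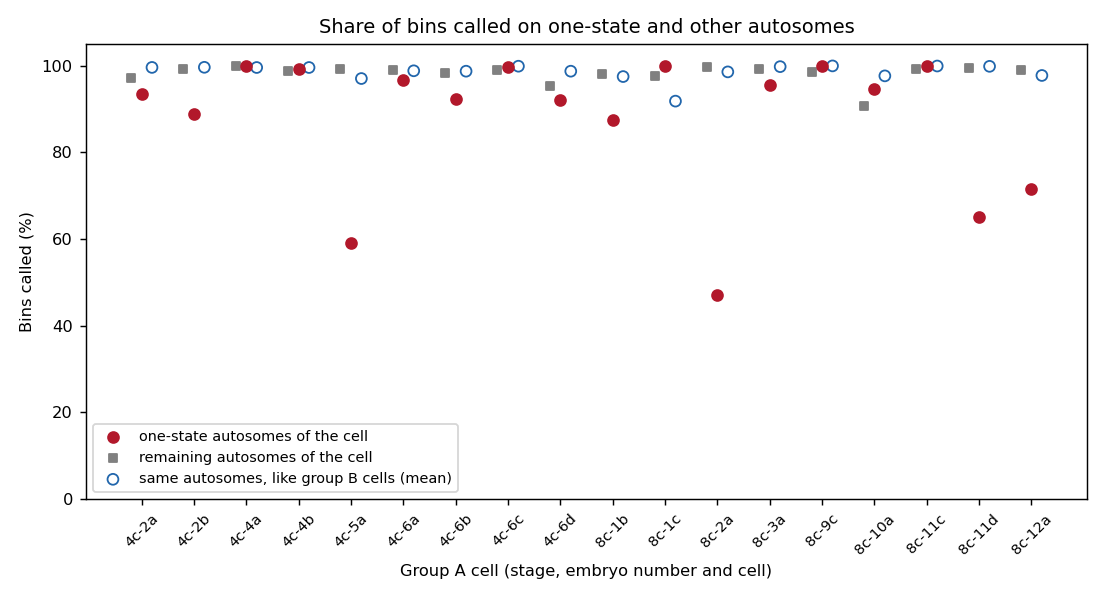
Percent of bins called (y axis) in each group A cell (x axis, stage, embryo number and cell): mean over its one-state autosomes (red), over its remaining autosomes (grey) and over the same autosomes as the red points in group B cells of like replication score (blue, open). The red points of 4c-5a, 8c-2a, 8c-11d and 8c-12a lie between 47.2% and 71.5%, while most other points exceed 90%.

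The main question was whether the remaining autosomes kept the replication order of group B. For each remaining autosome an order score was computed, the probability that a replicated bin of the cell was replicated in a larger share of reference cells than an unreplicated bin. It is 1 for full agreement and 0.5 for no shared order. The reference was at least 3 group B cells of other embryos within 10 points of replication score, and the same autosomes of group B cells of like score were scored against the same reference. An autosome needed at least 20 bins in each state. This left 14 of the 18 cells, of 8 embryos, because 4 cells had remaining autosomes that were replicated almost throughout.

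The order score was 0.815 ± 0.141 (SD, n = 8 embryos) in group A and 0.792 ± 0.130 in matched group B cells. The difference was 0.0228 ± 0.0721, above 0 in 6 of 8 embryos, and did not pass the test (two-sided exact sign-flip permutation test, p = 0.422). By embryo it ran from -0.0837 in 4-cell embryo 6 to 0.151 in 8-cell embryo 3. At the 8-cell stage the mean was 0.904 in group A and 0.851 in group B, higher in group A in 5 of 5 embryos, with p = 0.0625, the smallest this exact test allows for 5 embryos. At the 4-cell stage it was 0.666 and 0.693, higher in group A in 1 of 3 embryos, where the exact test cannot go below 0.25 (p = 0.75). The stages differed by -0.0800 in this difference, which did not pass an exact permutation test of the stage labels (p = 0.179). Matched and reference cells were taken from both stages. Group B held 7 cells of 4-cell embryos, all at scores of 68.6% or less except 4-cell embryo 5 cell b at 93.6%. In group A the median score of 4-cell blastomeres was 85.5%. The stage of the matched cells was therefore not separated from this contrast of stages.

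The direction of the order difference between the groups depended on how it was computed. It was 0.0413 (p = 0.0234) when cells were matched on the replicated percent of the remaining autosomes, and 0.0449 (p = 0.0312, 7 embryos) without 6 cells that had at least 15 remaining autosomes at 98% or more; these too are exact sign-flip permutation tests. It was -0.00661 on autosomes between 20% and 80% replicated and -0.0049 without 8-cell embryo 3. Within title set DEP_01_162 it was 0.0877 (4 embryos, exact permutation p = 0.125, the smallest possible) and within set DEP_01_164 it was -0.0404 (4 embryos, exact permutation p = 0.25). 1 group B cell, 8-cell embryo 3 cell f, scored 0.459, which is under 0.5, with a replication score of 87.7%, and without it the difference was 0.0106. Group B cells were matched to several group A cells, so the embryos' differences are not fully independent of each other.

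At replication scores of 30% to 70%, here called mid-S, order was high in both groups. The name stands for the score alone, and the position of a cell in S phase was not tested. The 8 group A cells there scored from 0.857 to 0.937 on their remaining autosomes, with a median of 0.922, and the 28 group B cells from 0.698 to 0.954, with a median of 0.918. Only 4 of those group B cells were lower than the lowest group A cell. Averaged by embryo and set against matched cells, group A had 0.910 ± 0.0298 (SD, n = 5 embryos) and group B 0.892 ± 0.00769, a difference of 0.0179 (exact sign-flip permutation test, p = 0.1875, with 0.0625 the smallest possible). The groups overlapped, and every mid-S group A cell was far above 0.5.

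Cell by cell, the 6 mid-S group A cells of 8-cell embryos scored between 0.916 and 0.935 on the autosomes they shared with their matches. 8-cell embryo 1 cell b scored 0.916 against a mean of 0.869 in 15 matched cells, 1 of which was higher. 8-cell embryo 1 cell c scored 0.935 against 0.934, with 7 of 12 matched cells higher. For 8-cell embryo 2 cell a the values were 0.918 and 0.896, and 7 of 13 matched cells were higher. These cells lay inside the range of cells without a one-state autosome, near its upper end in the first of them.

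The other mid-S cells gave the same kind of values. 8-cell embryo 11 cell c scored 0.926 against 0.885, and cell d 0.920 against 0.898. 8-cell embryo 12 cell a scored 0.925 against 0.891, with 3 of 14 matched cells higher. 4-cell embryo 6 cells b and d, with 8 one-state autosomes each, scored 0.859 and 0.854 against 0.880, and 12 of 16 matched cells were higher in each case. Thus the 2 cells with the most one-state autosomes were the 2 lowest of the 8, yet their 11 remaining autosomes were still well above 0.5. They were also the only 4-cell blastomeres of the 8. The 6 mid-S group B cells of 4-cell embryos scored from 0.698 to 0.903, with a median of 0.847, and the 22 of 8-cell embryos had a median of 0.928. Stage and number of one-state autosomes cannot be told apart in these 2 cells.

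**Figure D3:**
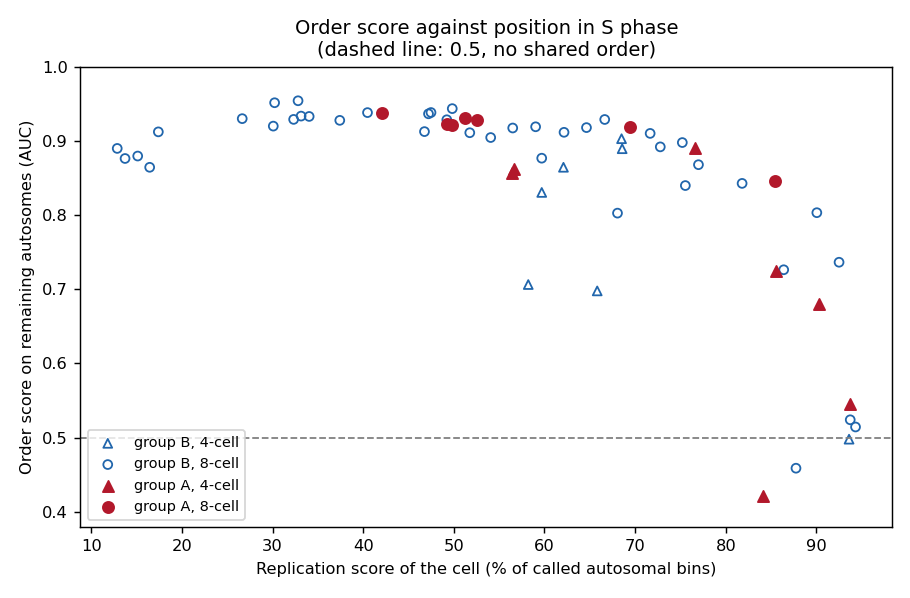
Order score on the remaining autosomes (y axis, mean within-chromosome AUC) against the replication score of the cell in percent (x axis) for group A (filled red) and group B (open blue), with triangles for 4-cell and circles for 8-cell blastomeres; 4 group A cells without a score are not shown. Between 30% and 70% the group A cells lie between 0.857 and 0.937, and both groups spread downward at high replication scores.

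Above a replication score of 70%, order scores reached lower values in both groups. 4-cell embryo 6 cell a (score 76.6%) reached 0.887 against 0.876, and 8-cell embryo 3 cell a (score 85.4%) reached 0.8288 against 0.678, with 2 of 10 matched cells higher. 4-cell embryo 2 cells a and b scored 0.681 and 0.726, against 0.616 and 0.667. 4-cell embryo 5 cell a scored 0.539 against 0.599 on 3 autosomes, and 4-cell embryo 6 cell c scored 0.425 against 0.724 on 1 autosome. The values of those last cells rest on few autosomes.

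Sister blastomeres gave a second comparison. In 6 embryos group A and group B cells could both be scored on the same autosomes, and group A had 0.848 ± 0.155 (SD, n = 6 embryos) and group B 0.820 ± 0.150. The difference of 0.0277 ± 0.0238 was above 0 in 6 of 6 embryos, from 0.0135 in 8-cell embryo 12 to 0.0751 in 8-cell embryo 2, and the two-sided exact sign-flip permutation test gave p = 0.0312, the smallest it can give here. Leaving out any 1 of the 6 embryos gave 0.0183 to 0.0306 with p = 0.0625, again the smallest possible. Sisters were not matched on replication score, and the score itself moves with it: in 8-cell embryo 2 the group A cell stood at 49.8% and its sister at 81.8%. In 8-cell embryo 3 the positive difference rested on sister cell f, with an order score of 0.459. Its sisters b, c, d and e scored 0.912, 0.864, 0.938 and 0.928, each above the 0.845 of the group A cell. The count of 6 of 6 embryos and its p therefore depend on cell f, and the test was not run without it. They also count 4-cell embryo 5, with 0.539 in group A and 0.524 in group B, both near 0.5. Its values came from 1 pair of cells, each with 3 scored autosomes.

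By chromosome, 0 of 19 autosomes differed after Benjamini-Hochberg adjustment of exact sign-flip permutation tests over 6 or 7 embryos. Unadjusted p was under 0.05 for chromosome 8, with 0.874 in group A and 0.831 in group B (p = 0.0156, exact permutation), and for chromosome 11, with 0.9005 and 0.839 (p = 0.0312, exact permutation), both with an adjusted p of 0.297. Chromosome 9, most often in 1 state, had 0.761 in group A and 0.813 in group B where it was a remaining autosome, a difference of -0.0518 ± 0.152 that was below 0 in only 2 of 6 embryos (exact permutation p = 0.5).

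**Figure D4:**
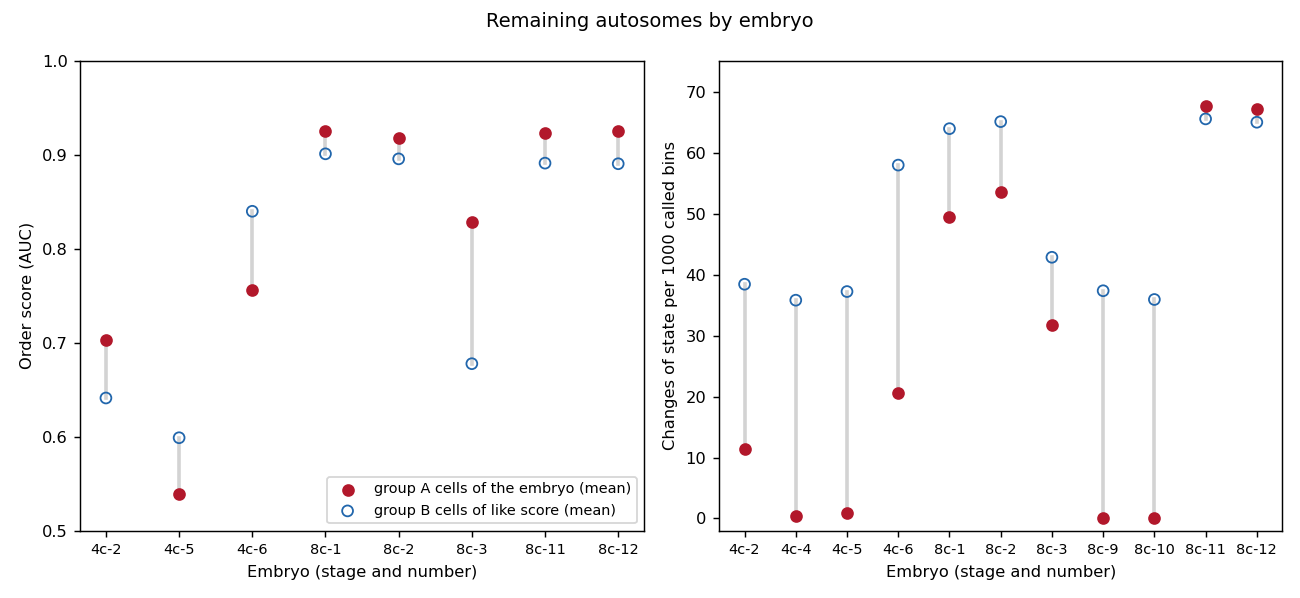
Mean over the group A cells of each embryo (red) and over their matched group B cells (open blue) of the order score (left, 8 embryos, axis from 0.5 to 1) and of the changes of state per 1000 called bins (right, 11 embryos) on the remaining autosomes; embryos are named by stage and number. In 6 of 8 embryos the red point is higher on the left, and in 9 of 11 embryos it is lower on the right.

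The regions that were earliest and latest in group B were mostly replicated and mostly unreplicated, respectively, in group A too. Windows of 1 Mb were called early where mid-S group B cells had 90% or more replicated and late where they had 10% or less, which gave 342 early and 214 late windows of 2389. For each group A or group B cell the windows were chosen without its own embryo. Early windows were 96.1% ± 3.17 replicated (SD, n = 5 embryos) in mid-S group A cells and 94.7% ± 0.463 in matched group B cells, a difference of 1.45 points (exact sign-flip permutation test, p = 0.3125). Late windows were 8.40% ± 8.16 and 8.92% ± 1.63 replicated, a difference of -0.517 points (p = 0.9375, exact permutation), and 0.278, 0.320 and 0.556 points without 8-cell embryo 11, 12 or 2. Neither difference passed the test. With 5 embryos this test cannot go below 0.0625.

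8-cell group A cells had 94.3% to 99.3% of the early windows and 0.287% to 16.1% of the late windows replicated, the highest late value in the cell with the highest replication score, 69.4%. 4-cell embryo 6, the only 4-cell embryo in this comparison, stood apart from these. Its cell b had 85% of early windows replicated, where the lowest of its 16 matched cells had 84.5%. Its cell d had 35% of late windows replicated, where matched cells averaged 11.2% and the highest had 39.1%. Both values lay inside the range of matched cells and near its edge. Matching was on the replication score, 56.5% in cell d, whereas its remaining autosomes were 76.5% replicated. The early and late windows were not compared with cells matched on the remaining autosomes. The part of this mismatch in the late value of cell d was therefore not tested. The windows were chosen from mid-S group B cells of which 22 of 28 were 8-cell. The 6 of 4-cell embryos had 84.4% to 99.8% of early and 11.3% to 40.8% of late windows replicated over all autosomes. Stage and group cannot be told apart for this embryo.

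**Figure D5:**
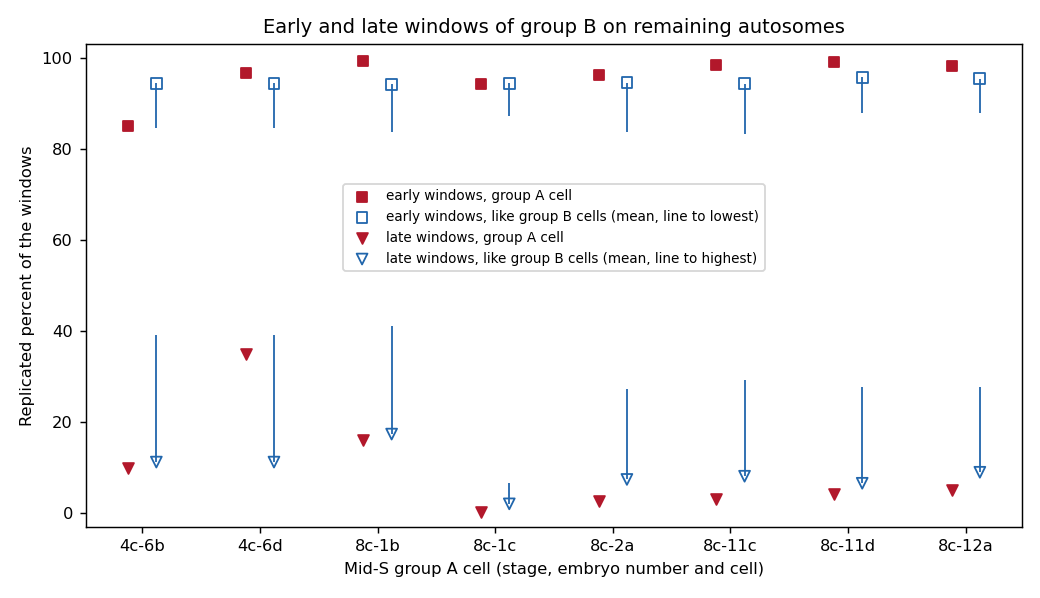
Replicated percent (y axis) of the early (squares) and late (triangles) windows of group B in each mid-S group A cell (red, x axis) and in group B cells of like score (open blue, mean, with a line to the lowest value for early and to the highest for late windows). Early windows exceed 84% and late windows stay under 36% in the 8 group A cells.

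Of the earliest windows of group B, those on chromosome 15 from 85000001 to 86000000 and on chromosome 16 from 32000001 to 33000000 were 100% replicated in 28 of 28 mid-S group B cells and 8 of 8 group A cells. The third, on chromosome 4 from 120000001 to 121000000, was 93.6% replicated over 6 group A cells, with a lowest value of 61.5%. Of the latest windows, those on chromosome 4 from 68000001 to 69000000 and on chromosome 7 from 77000001 to 78000000 were at 0% in both groups. The window on chromosome 6 from 80000001 to 81000000 was at 0% in group B and at 12.5% in group A, with values from 0% to 100% over 8 cells. Genes in these windows are not named, as no annotation of build mm9 was used here.

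Across the remaining autosomes as a whole, limma, with embryo as a random block (consensus correlation 0.406) and terms for stage and replication score, found 0 of 2385 windows with an adjusted p under 0.05 (0%) between 11 embryo means of group A and 16 of group B. At an unadjusted p under 0.05 it found 198 windows, or 8.3%. The smallest adjusted p was 0.178, shared by windows that include chromosome 14 from 107000001 to 108000000, at 78.2% ± 32.4 in group A and 23.4% ± 28 in group B, a fitted difference of 34.2 points (SE 7.77). Without 8-cell embryo 2, 4-cell embryo 5 or 8-cell embryo 11 the fit called 6, 2 and 1 windows, all more replicated in group A. It called 0 when each of the other embryos was left out in turn. The replication score in the fit included the one-state autosomes, of which 27 of 37 were unreplicated. Over all 2385 windows the median fitted difference was 3.70 points, so most windows were shifted in the same direction. A general shift of this kind was not separated from differences of single windows.

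State changed less often along the remaining autosomes of group A. Counted as changes of state per 1000 called bins, group A had 27.6 ± 27.6 (SD, n = 11 embryos) and matched group B cells had 49.5 ± 13.6 on the same autosomes. The difference of -22.0 ± 15.8 was below 0 in 9 of 11 embryos (two-sided exact sign-flip permutation test, p = 0.00391). 6 cells had almost no change of state: 4-cell embryo 4 cells a and b, 4-cell embryo 5 cell a, 4-cell embryo 6 cell c, 8-cell embryo 9 cell c and 8-cell embryo 10 cell a. In these, at scores of 84.1% to 94.8%, at least 15 remaining autosomes were replicated at 98% or more and at most 0.941 changes were counted. 3 cells of group B, of 2 embryos, had 14 or more such autosomes. Unreplicated autosomes lower the replication score of a cell, so its remaining autosomes can be more replicated than the score: in 4-cell embryo 6 cell a they were at 90.6% and the score was 76.6%. Matched on the remaining autosomes the difference was -14.5 (p = 0.00391), against cells of the same stage -13.2 (p = 0.0166) and without 8-cell embryo 3 cell f -14.0 (p = 0.00684), each by the same exact permutation test. Without the 6 cells the difference was -13.5 (7 embryos, exact permutation p = 0.0625), and in mid-S cells alone it was -10.8 (5 embryos, exact permutation p = 0.25).

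Within title set DEP_01_162 the difference was -28.3 (4 embryos, exact permutation p = 0.125, the smallest possible), and within set DEP_01_164 it was -14.9, below 0 in 7 of 7 embryos (exact permutation p = 0.0156). Among mid-S cells it was not even: 4-cell embryo 6 cells b and d had 32.8 and 31.1 changes per 1000 bins against 64 in matched cells, while 8-cell embryo 11 cell c had 71.5 against 64.6 and 8-cell embryo 12 cell a had 67.1 against 65.0. The longest run in 1 state covered 46.5% ± 41.3 of the called bins of a remaining autosome in group A and 26% ± 16.2 in group B (11 embryos, exact sign-flip permutation p = 0.0508). Without the 6 cells the runs covered 15.4% and 16.0%. The difference was 7.67 points against cells of the same stage (exact permutation p = 0.346), 0.859 in mid-S cells (5 embryos, exact permutation p = 0.875), and 8.78 and 25.9 within sets DEP_01_162 and DEP_01_164 (exact permutation p = 0.375 and 0.0625). With matching within 5 and 20 points of replication score it was 19.6 and 26.5 points and passed the exact permutation test (p = 0.00684 and 0.0293). It also passed without 4-cell embryo 1, 4-cell embryo 3, 8-cell embryo 11 or 8-cell embryo 12, at 20.6 to 22.8 points (exact permutation p of 0.0430 to 0.0469).

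The authors' noise score per cell (MAD score) was 0.476 ± 0.169 in group A and 0.448 ± 0.157 in matched group B cells (11 embryos, exact sign-flip permutation p = 0.119). Without 4-cell embryo 4 the difference was 0.0385 (exact permutation p = 0.0215). The difference was 0.0470 in 8-cell embryos, above 0 in 6 of 7 (exact permutation p = 0.0312), and -0.0046 in 4-cell embryos (n = 4, exact permutation p = 1). The stages differed by -0.0516, which did not pass an exact permutation test of the stage labels (p = 0.158). Here too the matched cells were taken from both stages. The score was highest in 4-cell embryo 6 cells b and d, at 0.801 and 0.805 against 0.629. Without the 6 cells the difference was 0.0373 (7 embryos, exact permutation p = 0.0312). Group A cells had fewer called autosomal bins, 28989 against 29403, a difference of -414 (11 embryos, exact permutation p = 0.0322). The part of noise and of called bins in the order scores and in the counts of changes was not tested.

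Chromosome X was not used by the rule. It met the limits in 0 of 18 group A cells and in 1 of 47 group B cells, 8-cell embryo 1 cell a, where it was 5.35% replicated at a replication score of 59.7%. In group A it ran from 17.3% to 100%. In 4-cell embryo 6 it was 29.8% in cell b and 80.2% in cell d, the direction in which 9 of the 11 remaining autosomes differed. X was replicated at 75.8% ± 27 in group A and 71.1% ± 22.8 in matched cells (11 embryos, exact sign-flip permutation p = 0.0996). Without 8-cell embryo 2, where X was 26.9% against 43.6%, the difference was 6.81 points (10 embryos, exact permutation p = 0.00586). This comparison and those of X below were matched on the replication score, which unreplicated autosomes lower. In 4-cell embryo 6 cell a the remaining autosomes were at 90.6% and the score was 76.6%. No comparison of X was matched on the remaining autosomes, so a difference particular to X was not tested.

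The order score of X was 0.793 ± 0.0725 (SD, n = 7 embryos) in group A and 0.737 ± 0.0439 in matched group B cells. The difference of 0.0559 ± 0.0383 was above 0 in 6 of 7 embryos (exact sign-flip permutation test, p = 0.0312). It was 0.0743 in mid-S cells (5 embryos, exact permutation p = 0.0625, the smallest possible). Within title set DEP_01_162 it was 0.102 (4 embryos, exact permutation p = 0.125) and within set DEP_01_164 it was -0.00152 (3 embryos, exact permutation p = 1). In the comparison over both sets each of the 3 scored embryos of set DEP_01_164 was above 0 (0.0231, 0.0531 and 0.0943), and the sets were not tested against each other. It passed without 4-cell embryo 2 (p = 0.0312), and without any other 1 of the 7 embryos it was 0.0476 to 0.0613 with p = 0.0625 by the same exact permutation test.

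State also changed less often along X. Group A had 31.8 ± 32.8 per 1000 called bins and matched cells 56.6 ± 17.9, a difference of -24.8 that was below 0 in 9 of 11 embryos (exact sign-flip permutation p = 0.00391). In mid-S cells it was -13.3 (5 embryos, exact permutation p = 0.25). The longest run on X covered 43.5% and 21.1% of its called bins (11 embryos, exact permutation p = 0.0303), and differed by 0.366 points in mid-S cells (5 embryos, exact permutation p = 0.9375). In each of the 6 cells with at least 15 remaining autosomes at 98% or more, X was at 99.7% or more. The call on runs was lost without 4-cell embryo 2, 4, 5 or 6 or without 8-cell embryo 9 or 10, with exact permutation p of 0.0566 to 0.0605 and differences of 18.1 to 22.9 points.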

How the data were processed

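The deposited profiles of single-cell replication sequencing give 1, -1 or 0 per bin of 80 kb. The build is mm9 (submitters' processing notes), with aligner, caller and filters not given in the sources used here. State 1 was taken as replicated because its share among called autosomal bins equals the authors' replication score (a percent, per the file headers) to within 4.98e-09. The MAD score is the authors' noise score, per the file headers, of unstated scaling. The authors' annotation names embryo and batch.

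Cell values were averaged per embryo and tested by a two-sided exact sign-flip permutation test over embryos. Windows (1 Mb, 6 or more called bins, 6 or more embryo means per group) were tested with limma 3.58.1 in R 4.3.3 and Benjamini-Hochberg adjustment. Named windows were the 3 earliest and 3 latest of mid-S group B cells and those with an adjusted p under 0.05, which were none; the chromosome 14 window was named after its values were seen. Every group A cell was named. The scores were computed in Python 3.11.15 with numpy 2.4.6, scipy 1.17.1 and pandas 2.3.3. The order score and the window fit were tested on simulated data with independent noise. Those data had no correlation within embryos, so these tests did not cover it. Members, rules and tests were chosen with earlier results of these data known. Alternatives were tried for matching, reference, measure, thresholds, title set and each embryo left out. The 12 cells outside both title sets served only as an alternative reference. Profile columns that matched no sample numbered 0.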

Additional observations from a re-analysis of the deposited data

Results flagged for a closer look

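Within each stage, differences between group A and matched group B cells were searched for an embryo far from the others. 18 sets of embryos were searched and 5 gave one; chance alone flags about 1 in 20. In the order score, 8-cell embryo 3 lay far above the other 8-cell embryos, with a difference of 0.151 in its 1 group A cell. In the noise score, 8-cell embryo 9 had a difference of 0.144, far above the rest. In called autosomal bins, 8-cell embryo 10 lay far below, with -2084 bins. In the replicated percent of chromosome X, 8-cell embryo 2 lay far below, with -16.7 points. In changes of state on X, 4-cell embryo 6 lay far below the other 4-cell embryos, with -48.7 per 1000 called bins. The cause of these values was not tested.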

How the results depend on the processing

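The order difference of 0.0228 changed sign on autosomes between 20% and 80% replicated (-0.00661), with limits of 20% and 80% (-0.00512) and in title set DEP_01_164 (-0.0404). It passed its test when matched on the remaining autosomes (0.0413) or without the 6 cells with at least 15 remaining autosomes at 98% or more (0.0449). Against 4-cell cells outside both title sets it was -0.0575, in 1 embryo and without a test. It kept its direction and its side of the threshold under 11 of 17 alternatives; with cells of the same stage only, 5 embryos could be scored. Without the 6 cells, changes of state were -13.5, longest runs -0.573 and noise 0.0373. Changes of state were -10.8 in mid-S cells and -28.3 in set DEP_01_162. Longest runs were 19.6 and 26.5 with matching within 5 and 20 points. On chromosome X, mid-S cells gave 0.0743 for order, -13.3 for changes and 0.366 for runs; set DEP_01_162 gave 0.102, -36.6 and 11.9; set DEP_01_164 gave -0.00152 for order and 27.5 for runs. The other settings, apart from embryos left out, changed no call. Leaving out 1 embryo gave -0.0049 to 0.0461 for order, -24.3 to -15.3 for changes, 16.8 to 22.8 for runs, 0.0131 to 0.0385 for noise, 0.0183 to 0.0306 between sisters, 0.0476 to 0.0657, 3.77 to 6.81, -28.2 to -22.4 and 18.1 to 25.8 for order, percent, changes and runs on X, 0.868 to 2.70 and -3.47 to 0.556 for early and late windows, -15.3 to -10.2 for called share and 0 to 6 for windows called. The causes were not tested. The labels give cells no replicate numbers that groups share, so no pairing by replicate was possible. Embryos that hold both groups are compared as sisters, paired by embryo, in the report. The settings without the 6 cells or without 8-cell embryo 3 cell f, mid-S cells and title sets for results other than the order score, and embryos left out of the results on sisters, X, early and late windows and called share, were chosen after seeing the data.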
